A study of Rattus norvegicus with 27 samples.

Results

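The genes described here mark the endothelial cells of brain capillaries and the barrier that these cells form, together with a growth factor and a transcription factor that act on them. They were Cldn5, Ocln, Pecam1, Flt1, Kdr, Vwf, Tek, Abcb1a, Vezf1 and Vegfa. Probes were taken by the gene name printed in the annotation of the array, which found 12 of its 41012 non-control probes and 8 of the 10 genes. None carried the name Ocln or Pecam1. Probes that reach these 2 genes only through their reference accession are given apart, as 3 probes outside the rule.

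Arrays were run on RNA from 3 brain regions of 10-week-old male rats, namely striatum, hippocampus and prefrontal cortex. Streptozotocin-treated rats were Wistar rats that had received 65 mg/kg of streptozotocin at 6 weeks of age, had exceeded 15 mmol/l of fasting blood sugar and were killed 4 weeks after the injection, as a model of type 1 diabetes. Goto-Kakizaki rats, an inbred lean strain with polygenic type 2 diabetes, were not injected, and the controls were untreated Wistar rats. Average blood sugar was 26.34 mmol/l in streptozotocin-treated rats, 13.9 mmol/l in Goto-Kakizaki rats and 7.64 mmol/l in controls. Each of the 9 combinations of region and animal group had 3 arrays, and each array held RNA pooled from 3 animals. The 3 regions came from the same 9 animals per group, so that regions are not independent of each other, and Goto-Kakizaki rats differ from Wistar controls in strain as well as in blood sugar.

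Endothelial cells of the brain are sealed to each other by tight junctions and carry export pumps, and together these restrict what passes from blood into the tissue. Vascular endothelial growth factor, made largely by other cells, binds receptor kinases on the endothelium and drives growth and permeability of vessels. In contrast, the angiopoietin Angpt1 acts through the receptor Tie2 and keeps vessels quiescent. In tissue RNA these transcripts come from a small share of all cells. Fewer endothelial cells and less RNA per endothelial cell cannot be told apart in such samples.

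The probes on which the results turn are shown by their sequences, 60 bases each, 5′ to 3′ as in the files of the array. Both probes are given for Vwf, Tek and Vegfa, since the probes of 1 gene behaved differently. Capitals mark AAGAAGAAG, or a longer run of the same repeat, which a probe of Vwf shares with a probe of Tek. Tek A_44_P534601 ends in the shorter AAGAAG, which is not marked.
Cldn5 A_43_P15791: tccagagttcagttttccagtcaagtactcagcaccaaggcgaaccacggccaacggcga
Vezf1 A_43_P15001: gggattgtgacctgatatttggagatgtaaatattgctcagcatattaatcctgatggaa
Vegfa A_43_P15572: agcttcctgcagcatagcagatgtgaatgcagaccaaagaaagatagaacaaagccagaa
Vegfa A_44_P300751: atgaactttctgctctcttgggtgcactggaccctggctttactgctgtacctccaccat
Tek A_44_P534601: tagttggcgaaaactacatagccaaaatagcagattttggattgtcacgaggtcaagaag
Tek A_44_P335594: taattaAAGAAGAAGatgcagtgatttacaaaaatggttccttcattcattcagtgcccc
Vwf A_44_P1025918: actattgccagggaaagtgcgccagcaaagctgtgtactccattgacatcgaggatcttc
Vwf A_43_P15902: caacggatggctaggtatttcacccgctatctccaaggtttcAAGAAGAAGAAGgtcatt

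In the rat assembly GRCr8, the RefSeq gene table places Cldn5 at chr11:95717172-95718598, Abcb1a at chr4:26312403-26488456, Kdr at chr14:32572031-32615204 and Flt1 at chr12:12333050-12504750. Tek lies at chr5:114722815-114849535, Vwf at chr4:160042900-160177757, Vegfa at chr9:22452854-22468194 and Vezf1 at chr10:73341666-73373320. The predicted transcripts behind the probes of Tek, Vwf and Vezf1 are matched to that table by gene symbol alone. The exon that each probe meets was not analysed here.

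The 75th percentile of the signal ran from 690.3 to 1527 over the 27 arrays, and 67.4% to 75.3% of the probes of an array were well above background. All values below are log2 levels relative to that percentile of the same array, so that a level of 0 equals it. Levels of different probes are not comparable, and each probe is compared only with itself. The arrays lay on 7 slides. Arrays that shared slide 5, 6 or 7 deviated together from their group means (mean r of 0.468, 0.654 and 0.480), whereas arrays on different slides had a mean r of -0.0294. All 7 measured striatum markers passed the test as higher in control striatum than in control hippocampus, and 6 of 7 hippocampus markers as lower and 1 as higher. Choroid plexus markers summed to between 21.6 and 161 in the Goto-Kakizaki hippocampus and between 2.91 and 129 in the control hippocampus, uneven between arrays of 1 group. Their part in the results was not tested.

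Of the 12 member probes, 11 were well above background on all 27 arrays, and Tek A_44_P335594 was so on 24. Cldn5, the main claudin of brain tight junctions, ran from 2.48 to 4.47. Kdr, the signalling receptor for Vegfa, ran from 2.13 to 4.11. Vezf1, a zinc finger factor first described in vascular endothelium and also expressed outside it, had the widest range of group means, 2.55 on the log2 scale. Pecam1, an adhesion molecule of endothelial junctions whose probe bears the older name Pecam, was well above background on 9 of 27 arrays. It was so on none of the arrays of the streptozotocin-treated hippocampus, the Goto-Kakizaki hippocampus and the streptozotocin-treated striatum, and no change is given for it.

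**Figure D1:**
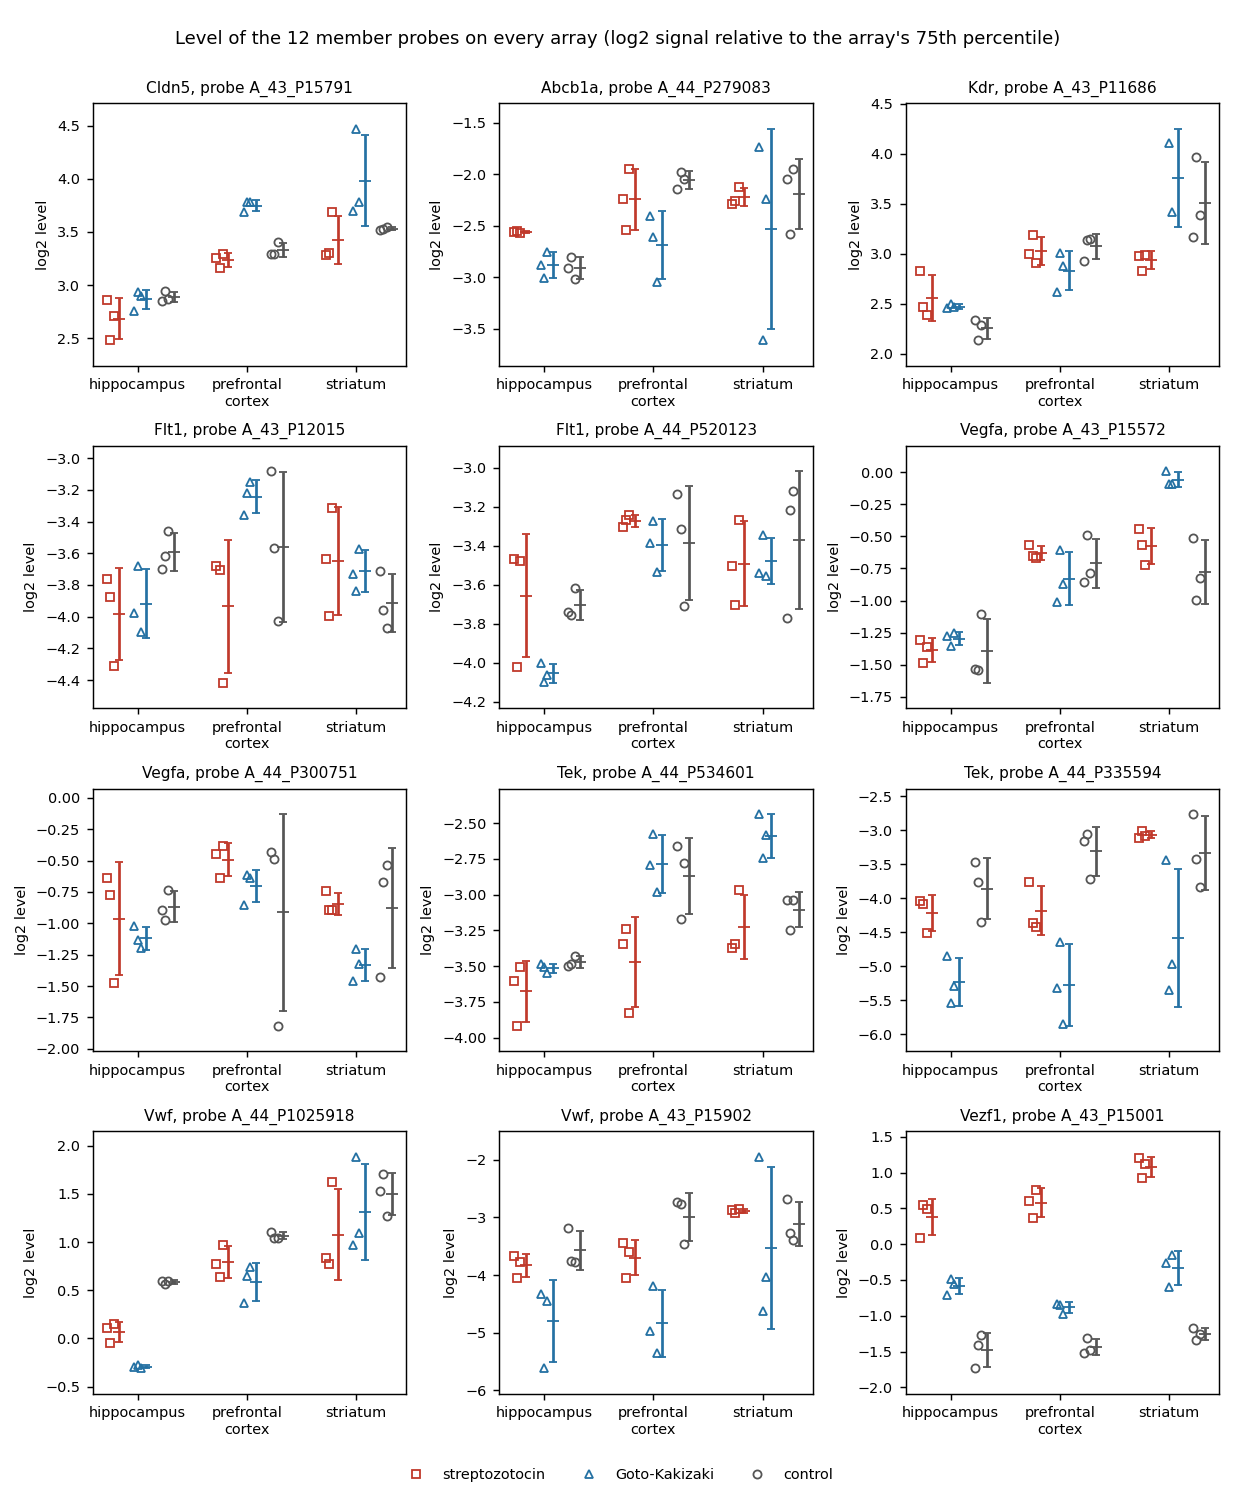
Log2 level (y axis, relative to the 75th percentile of the array) of each of the 12 member probes by brain region (x axis), with 1 point per array, squares for streptozotocin-treated, triangles for Goto-Kakizaki and circles for control rats, and bars for the mean and SD of 3 arrays. Only Vezf1 separates all 3 animal groups in every region, and each probe has its own y axis.

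Regions of control rats differed in the level of the endothelial genes. Kdr stood at 3.17, 3.96 and 3.39 in the control striatum, against 2.34, 2.13 and 2.29 in the control hippocampus. It was thus 2.38-fold higher in the striatum (log2 1.25, SE 0.184, adjusted p 2.57e-05), without overlap of the arrays. Cldn5 stood at 3.52, 3.53 and 3.55 in the control striatum and at 2.85, 2.94 and 2.87 in the control hippocampus (log2 0.65, adjusted p 0.00251). Vwf A_44_P1025918, a probe of the von Willebrand factor of endothelial storage granules, stood at 1.53, 1.70 and 1.27 in the striatum and at 0.59, 0.56 and 0.60 in the hippocampus (log2 0.92, adjusted p 0.00184). Vegfa A_43_P15572, for the growth factor itself, was the fourth probe to pass (log2 0.61, adjusted p 0.00192). The second probe of Vegfa, A_44_P300751, did not pass, with means of -0.88 in the striatum and -0.87 in the hippocampus. The test passed 4 of 12 member probes, all higher in the striatum, where 29.9% of all probes passed, 17.3% as higher and 12.6% as lower. Without overlap of the arrays were 7 of 12, against 45.4% of all probes. Control striatum and control hippocampus shared no slide, so that slide and region cannot be told apart here. The Cldn5 call was lost with the normexp background correction.

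Prefrontal cortex of control rats lay above the hippocampus in 3 of 12 probes, against 16.0% of all probes that passed, 8.9% as higher and 7.07% as lower. The arrays did not overlap in 6 of 12, against 42.3% of all probes. These were Kdr (2.93, 3.14 and 3.15 in the prefrontal cortex, log2 0.82, adjusted p 0.00346), Vegfa A_43_P15572 (log2 0.68, adjusted p 0.00136) and Tek A_44_P534601, for the angiopoietin receptor Tie2 (log2 0.60, adjusted p 0.0126). No slide held arrays of both regions, so that slide and region cannot be told apart. With the slides 5 to 7 as covariates, Vegfa A_43_P15572 kept its call (log2 1.08), while Kdr (log2 0.30, adjusted p 0.646) and Tek (log2 0.64, adjusted p 0.191) did not. The second probe of Vegfa, A_44_P300751, was not called in the comparison of these regions, with means of -0.91 in the prefrontal cortex and -0.87 in the hippocampus. The call for Tek was also lost without prefrontal cortex control replicate 1 (adjusted p 0.0731) or 3 (adjusted p 0.0556). Cldn5 (log2 0.44, adjusted p 0.0516) and Abcb1a, the P-glycoprotein pump of the luminal membrane (log2 0.85, adjusted p 0.0556), did not pass.

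Control striatum and control prefrontal cortex were not separated by any of the 12 probes under limma, where 25.4% of all probes passed, 13.1% as higher in the striatum and 12.3% as lower. At an unadjusted p under 0.05 there were 2 member probes, and 3 had no overlap of the arrays, against 36.2% of all probes. The smallest adjusted p, 0.095, belonged to Kdr (log2 0.43, 95% interval 0.05 to 0.82), which passed without striatum control replicate 1 (log2 0.60, adjusted p 0.0259). In controls Kdr was ordered striatum, prefrontal cortex, hippocampus, and the first pair of neighbours did not overlap but missed the adjusted threshold. For Cldn5 neither pair of neighbours in that same order passed the test.

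Other endothelial genes were read from a list of 26, of which 25 were on the array and 23 were tested. In the control striatum 11 were higher and 2 lower than in the control hippocampus, with a median log2 difference of 0.47, against 0.03 over all probes. Of all probes, 17.3% passed as higher and 12.6% as lower in this comparison. Klf4, a flow-responsive factor (log2 1.01), Mmrn2, a matrix protein of vessels (log2 0.94), and Icam2, an adhesion molecule (log2 0.86), were higher, while Lmo2, a partner of haematopoietic and endothelial factors, was lower (log2 -1.01). Against the same hippocampal arrays, 9 were higher and 2 lower in control prefrontal cortex (median 0.43), where 8.9% of all probes passed as higher and 7.07% as lower. Pericyte markers moved with them, with 7 of 10 higher in the striatum and 3 of 10 higher in the prefrontal cortex than in the hippocampus, and their part in the region differences was not tested. Neither region shared a slide with the control hippocampus.

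Goto-Kakizaki rats were compared with controls to ask which genes the inherited diabetic strain alters in each region. In the hippocampus the changes of the members were mixed, with Vezf1 higher and 1 probe each of Vwf and Tek lower. In the prefrontal cortex Vezf1 was again higher and the second probe of Vwf and the same probe of Tek were lower. In the striatum Vezf1, Vegfa and 1 probe of Tek were higher while the other probe of Tek was lower. Claudin 5, Kdr, Flt1 and the export pump passed in none of the 3 regions.

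Vezf1 in the hippocampus stood at -0.71, -0.49 and -0.56 in Goto-Kakizaki rats, against -1.73, -1.41 and -1.27 in controls. Goto-Kakizaki prefrontal cortex held it at -0.83, -0.85 and -0.97, against -1.52, -1.31 and -1.48 in control prefrontal cortex. In the striatum it stood at -0.26, -0.60 and -0.15 in Goto-Kakizaki rats and at -1.16, -1.34 and -1.26 in controls. Every Goto-Kakizaki array lay above every control array of its region. The increase was 1.85-fold in the hippocampus (log2 0.89, SE 0.148, adjusted p 0.000496), 1.47-fold in the prefrontal cortex (log2 0.55, adjusted p 0.021) and 1.89-fold in the striatum (log2 0.92, adjusted p 0.000259). On the slides that held both groups it was 0.79 on slide 2 in the hippocampus (adjusted p 0.181) and 0.83 on slide 4 in the striatum (adjusted p 0.0459). No slide held both groups in the prefrontal cortex, so that slide and group cannot be told apart there. The prefrontal call was lost with normexp (log2 0.52, adjusted p 0.208) and with the slides 5 to 7 as covariates (log2 0.36, adjusted p 0.526), and the striatal call with normexp (log2 0.54). The prefrontal call was lost also without Goto-Kakizaki replicate 1 (adjusted p 0.0524) or 2 (0.0685) and without control replicate 1 (0.0727) or 3 (0.0765).

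In the Goto-Kakizaki hippocampus Vwf A_44_P1025918 stood at -0.30, -0.27 and -0.31, against 0.59, 0.56 and 0.60 in controls. The spread within each group was a small part of the gap between them (log2 -0.88, SE 0.207, adjusted p 0.0126), and the call was lost without Goto-Kakizaki replicate 3 (log2 -0.87, adjusted p 0.0505). On slide 2 alone the difference was -0.89 (adjusted p 0.422). Tek A_44_P335594 stood at -4.85, -5.54 and -5.30 in Goto-Kakizaki rats and at -3.46, -3.76 and -4.35 in controls (log2 -1.37, SE 0.395, adjusted p 0.0463), and 2 of the 3 Goto-Kakizaki arrays were well above background. That call held without control replicate 3 only, and the adjusted p lay between 0.0579 and 0.209 without any other array. The same call was lost with scaling to the 50th percentile, quantile normalization, normexp, no filter on dim probes and the methods' t-test. The second probes of both genes were not called. Vwf A_43_P15902 had means of -4.80 in Goto-Kakizaki rats and -3.57 in controls, without overlap. For Tek A_44_P534601 the means were -3.51 and -3.47. Altogether 3 of 12 member probes passed, where 5.11% of all probes did (2.35% as higher and 2.77% as lower), and 7 of 12 had no overlap of the arrays, where 44.8% of all probes had none.

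In the Goto-Kakizaki prefrontal cortex 3 of 12 member probes passed, against 8.8% of all probes (4.26% as higher and 4.53% as lower). Vwf A_43_P15902 stood at -4.96, -4.20 and -5.35 in Goto-Kakizaki rats and at -2.72, -2.77 and -3.47 in controls (log2 -1.85, SE 0.474, adjusted p 0.0161). Tek A_44_P335594 stood at -5.32, -4.65 and -5.85 in Goto-Kakizaki rats and at -3.16, -3.05 and -3.72 in controls (log2 -1.96, SE 0.395, adjusted p 0.00263). That Tek probe was well above background on 2 of the 3 Goto-Kakizaki arrays. With the normexp background correction neither was called (Tek log2 -0.78, adjusted p 0.644, and Vwf log2 -0.93, adjusted p 0.459), and with the slides 5 to 7 as covariates Tek kept its call and Vwf did not (log2 -2.39, adjusted p 0.135). The Tek call held without each array in turn, and the Vwf call was lost without Goto-Kakizaki replicate 3 (adjusted p 0.093) or control replicate 1 (0.0586) or 2 (0.0695). Both probes carry the AAGAAGAAG run, and the other probe of each gene did not pass here (Vwf A_44_P1025918, log2 -0.48, and Tek A_44_P534601, log2 0.08). Cldn5 stood at 3.68, 3.78 and 3.78 in Goto-Kakizaki rats and at 3.29, 3.30 and 3.40 in controls, without overlap, yet missed the threshold (log2 0.42, adjusted p 0.0927). In total 6 of 12 member probes had no overlap here, against 26.9% of all probes.

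In the Goto-Kakizaki striatum 4 of 12 member probes passed, against 13.8% of all probes (6.48% as higher and 7.35% as lower). Vegfa A_43_P15572 stood at 0.01, -0.10 and -0.09 in Goto-Kakizaki rats and at -0.51, -1.0 and -0.82 in controls, which was 1.64-fold higher in Goto-Kakizaki rats (log2 0.72, SE 0.14, adjusted p 0.00159). The call held without each array in turn. It was lost with normexp, with the slides 5 to 7 as covariates, with the region or the 2 groups fitted alone and with the methods' t-test. On slide 4, with 3 Goto-Kakizaki arrays and 1 control array, the difference was 0.45 and was not called. The second probe of the gene, Vegfa A_44_P300751, stood at -1.46, -1.20 and -1.32 in Goto-Kakizaki rats and at -1.43, -0.67 and -0.54 in controls (log2 -0.45, not called). The 2 probes of Vegfa thus pointed to opposite sides. Tek A_44_P534601 stood at -2.44, -2.75 and -2.59 in Goto-Kakizaki rats and at -3.03, -3.24 and -3.04 in controls (log2 0.52, adjusted p 0.0389). Tek A_44_P335594 stood at -3.43, -5.34 and -4.96 in Goto-Kakizaki rats and at -2.76, -3.42 and -3.84 in controls (log2 -1.24, adjusted p 0.0403), with overlap of the arrays. It was well above background on 2 of the 3 Goto-Kakizaki arrays. The 2 probes of Tek therefore passed in opposite directions in the same RNA. The A_44_P534601 call was lost without Goto-Kakizaki replicate 1 (adjusted p 0.107) or 3 (0.0771) and without control replicate 2 (0.14) or 3 (0.0651). The A_44_P335594 call was lost without Goto-Kakizaki replicate 2 (adjusted p 0.192) or 3 (0.128) and without control replicate 1 (0.138) or 2 (0.0852). With the normexp background correction A_44_P534601 changed sign, to -0.13. Cldn5 stood at 3.70, 4.47 and 3.78 in Goto-Kakizaki rats and at 3.52, 3.53 and 3.55 in controls (log2 0.45, adjusted p 0.0512), and passed without Goto-Kakizaki replicate 1 (log2 0.60, adjusted p 0.0141) or 3 (log2 0.55, adjusted p 0.0344). In total 4 of 12 had no overlap, against 22.8% of all probes.

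**Figure D2:**
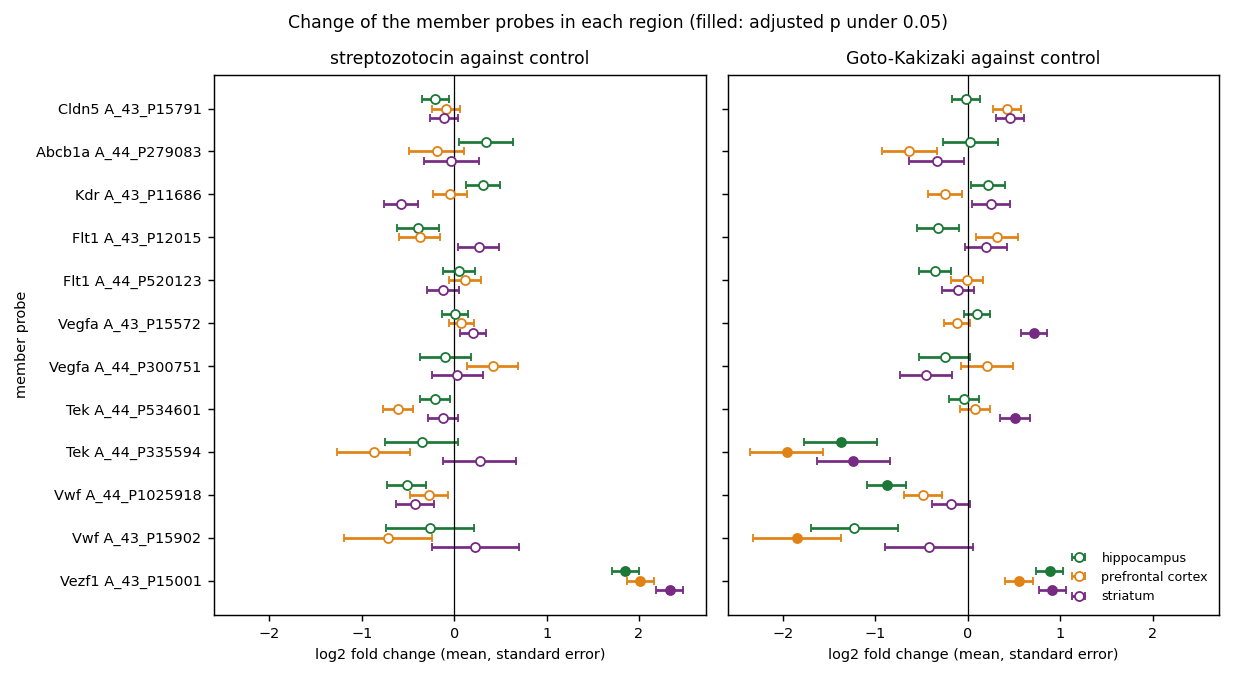
Log2 fold change (x axis, mean and standard error from limma) of each member probe (y axis) for streptozotocin-treated against control rats on the left and Goto-Kakizaki against control rats on the right, coloured by region, with filled points at an adjusted p under 0.05. In streptozotocin-treated rats only Vezf1 is filled, at 1.85, 2.01 and 2.33, while Goto-Kakizaki rats have 10 filled points over 6 probes.

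Whether the strain effect itself differed between regions was tested as an interaction. No member probe passed in any of the 3 pairs of regions under limma, where 0.726% of all probes passed for hippocampus against striatum, 0.304% for hippocampus against prefrontal cortex and 0.165% for prefrontal cortex against striatum. At an unadjusted p under 0.05 there were 4, 0 and 2 member probes. Vegfa A_43_P15572 came closest. Its strain effect was lower by 0.84 on the log2 scale in the prefrontal cortex than in the striatum (95% interval -1.25 to -0.42, adjusted p 0.0927) and by 0.62 in the hippocampus than in the striatum (95% interval -1.03 to -0.21, adjusted p 0.11). The calls in single regions are therefore not shown to be particular to those regions.

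Streptozotocin-treated rats were compared with controls to ask what differs in the injected model, in which loss of insulin, high blood sugar and the drug itself are not separated. Vezf1 was the single member probe to pass, and it passed in all 3 regions with the same direction. In the hippocampus it stood at 0.09, 0.55 and 0.49 in streptozotocin-treated rats, against -1.73, -1.41 and -1.27 in controls. Prefrontal cortex levels were 0.61, 0.36 and 0.76 in streptozotocin-treated rats and -1.52, -1.31 and -1.48 in controls. In the striatum it stood at 1.2, 0.92 and 1.12 in streptozotocin-treated rats and at -1.16, -1.34 and -1.26 in controls. The arrays of the groups lay far apart in each region. The single Vezf1 probe was 3.61-fold higher in the hippocampus (log2 1.85, SE 0.148, adjusted p 1.46e-07), 4.04-fold higher in the prefrontal cortex (log2 2.01, adjusted p 3.99e-08) and 5.04-fold higher in the striatum (log2 2.33, adjusted p 2.16e-09). No second probe of the gene was there to set beside it. These calls held without each array in turn. With the unequal-variance t-test of the study's methods none of the 3 passed (adjusted p 0.170, 0.203 and 0.240 in the same order of regions). On slides 5, 6 and 7, each with 1 streptozotocin-treated and 1 control array of the prefrontal cortex, the differences were 1.67, 2.24 and 2.13, all called. In the hippocampus and striatum no slide held both groups.

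Among all tested probes 2.2% passed in the hippocampus (1.12% as higher and 1.08% as lower), 2.67% in prefrontal cortex (1.04% as higher and 1.64% as lower) and 3.25% in striatum (1.76% as higher and 1.49% as lower). The 1 of 12 member probes is read only as a result about Vezf1. At an unadjusted p under 0.05 there were 2, 3 and 2 of 12 member probes in that order of regions. Of all probes, 4366 of 30671, 4750 of 30911 and 5544 of 30606 were under that limit. S100b is a calcium-binding protein used as an astrocyte marker. Its r with Vezf1 was 0.88 over all arrays and -0.15 over the deviations from the group means. By r over all arrays S100b ranked 6 among the probes nearest Vezf1. Nearest were Ccl6 (r 0.94), Grin2d (0.92) and Mef2a (0.92), with -0.05, 0.22 and 0.67 over the deviations. On the log2 scale S100b was higher in streptozotocin-treated rats by 6.10 (hippocampus), 5.77 (prefrontal cortex) and 5.66 (striatum), and was the single one of 8 astrocyte markers to pass as higher in each region. The astrocyte markers together, S100b included, summed to between 131 and 141 in the streptozotocin-treated striatum, against 98.6 to 115 in the control striatum. The sums overlapped in the hippocampus (117 to 152 against 105 to 118) and the prefrontal cortex (114 to 140 against 104 to 120). The part of the astrocyte markers in the Vezf1 result was not tested.

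The remaining members had no call after streptozotocin. In the prefrontal cortex Tek A_44_P534601 stood at -3.35, -3.24 and -3.83 in streptozotocin-treated rats and at -2.66, -3.17 and -2.78 in controls (log2 -0.60, adjusted p 0.0502). It passed without control replicate 2 (log2 -0.75, adjusted p 0.0258) or streptozotocin replicate 2 (log2 -0.72, adjusted p 0.032) and with slide as a random block (adjusted p 0.0483). In the striatum Kdr stood at 2.98, 2.83 and 2.99 in streptozotocin-treated rats and at 3.17, 3.96 and 3.39 in controls (log2 -0.57, adjusted p 0.0973), and passed without control replicate 1 (log2 -0.74, adjusted p 0.0307). For Cldn5 the change was -0.20 in the hippocampus (95% interval -0.52 to 0.11), -0.09 in the prefrontal cortex (-0.41 to 0.22) and -0.11 in the striatum (-0.42 to 0.21). For Abcb1a the intervals ran from -0.28 to 0.96, from -0.81 to 0.43 and from -0.65 to 0.59 in the same order of regions. These intervals leave room for moderate changes in either direction. The arrays did not overlap for 6 of 12 member probes in hippocampus, 4 in prefrontal cortex and 2 in striatum, against 30.1%, 27.5% and 22.7% of all probes.

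Goto-Kakizaki rats were also set directly against streptozotocin-treated rats. Vezf1 was lower in Goto-Kakizaki rats in every region, by -0.96 in the hippocampus (adjusted p 0.000164), -1.46 in the prefrontal cortex (adjusted p 7.29e-07) and -1.42 in the striatum (adjusted p 1.16e-06). The order of its level was thus streptozotocin-treated, Goto-Kakizaki, control in all 3 regions, with a call between each pair of neighbours. In the hippocampus it was the 1 of 12 member probes to pass, against 8.7% of all probes (4.03% as higher and 4.66% as lower), and 5 of 12 had no overlap, against 39.9%. Prefrontal cortex had 4 of 12 passing, against 15.8% of all probes (7.42% as higher and 8.41% as lower), and 6 of 12 without overlap, against 34.3%. The others were higher in Goto-Kakizaki rats, namely Cldn5 (3.68, 3.78 and 3.78 in Goto-Kakizaki and 3.26, 3.16 and 3.29 in streptozotocin-treated rats, log2 0.51, adjusted p 0.0252), Tek A_44_P534601 (log2 0.69, adjusted p 0.00665) and Flt1 A_43_P12015, for the high-affinity receptor that holds Vegfa away from Kdr (log2 0.69, adjusted p 0.0409). In neither the hippocampus nor the prefrontal cortex did a slide hold both groups, so that slide and group cannot be told apart there. All 3 calls were lost with the slides 5 to 7 as covariates (Cldn5 log2 0.55, adjusted p 0.29, Tek log2 0.65, adjusted p 0.225, and Flt1 log2 0.55, adjusted p 0.302) and with normexp, where Tek was at log2 0.08. Each was lost as well without streptozotocin replicate 3, at adjusted p of 0.0526 for Cldn5, 0.0529 for Tek and 0.236 for Flt1. The Cldn5 call was also lost without Goto-Kakizaki replicate 2 or 3 or streptozotocin replicate 1 or 2 (adjusted p 0.0616 to 0.0812), and the Flt1 call without Goto-Kakizaki replicate 1, 2 or 3 (0.0507 to 0.128). With the normexp background correction the Flt1 difference was -0.0060. The second probes of Flt1 and Tek lay on the other side, without a call. Mean levels in Goto-Kakizaki and streptozotocin-treated prefrontal cortex were -3.40 and -3.27 for Flt1 A_44_P520123, and -5.27 and -4.18 for Tek A_44_P335594.

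In the striatum 6 of 12 passed, against 16.1% of all probes (8.34% as higher and 7.77% as lower), and 7 of 12 had no overlap, against 38.8%. Kdr stood at 4.11 and 3.41 in Goto-Kakizaki rats, where the value of replicate 1 was marked as an outlier and left out, and at 2.98, 2.83 and 2.99 in streptozotocin-treated rats (log2 0.83, SE 0.206, adjusted p 0.0123). It was not called without Goto-Kakizaki replicate 2 (log2 0.48, adjusted p 0.224). Cldn5 stood at 3.70, 4.47 and 3.78 in Goto-Kakizaki and at 3.28, 3.30 and 3.69 in streptozotocin-treated rats (log2 0.56, adjusted p 0.0192), and lost the call without Goto-Kakizaki replicate 2 (log2 0.31, adjusted p 0.119) or streptozotocin replicate 1 (0.0655) or 2 (0.0839). Higher as well were Vegfa A_43_P15572 (log2 0.52, adjusted p 0.0191) and Tek A_44_P534601 (log2 0.64, adjusted p 0.0139), while Tek A_44_P335594 was lower (log2 -1.52, adjusted p 0.0157). All 3 of these were lost without streptozotocin replicate 2, at adjusted p of 0.0558 for Vegfa, 0.065 for Tek A_44_P534601 and 0.0544 for Tek A_44_P335594. Vegfa was also lost without streptozotocin replicate 3 (0.0792), Tek A_44_P534601 without streptozotocin replicate 1 (0.051) and Tek A_44_P335594 without Goto-Kakizaki replicate 2 (0.115). The second probe of Vegfa, A_44_P300751, lay on the other side without a call, at means of -1.33 in Goto-Kakizaki and -0.84 in streptozotocin-treated rats. The calls for Kdr, Cldn5, Vegfa and both probes of Tek were all lost with normexp and with the region fitted alone. Where called, Cldn5 and Kdr lay higher in Goto-Kakizaki than in streptozotocin-treated striatum, whereas neither gene passed against controls in either model. No slide held both groups in the striatum either, so that slide and group cannot be told apart there. Comparisons with controls share the control arrays, so that the models are not independent of each other there.

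The probes of 1 gene did not move together. Over the 27 arrays the 2 probes of Vwf had a Pearson r of 0.48, those of Flt1 0.22, those of Tek 0.01 and those of Vegfa -0.09. In contrast, Vwf A_43_P15902 and Tek A_44_P335594, probes of different genes, had an r of 0.92 (Spearman rho 0.94), of 0.90 without the 2 arrays farthest from the median, and of 0.89 over the deviations from the group means. These arrays share groups, slides and scaling, so that the correlations describe the arrays and carry no test. The next highest r, 0.79, was between Cldn5 and Tek A_44_P534601.

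**Figure D3:**
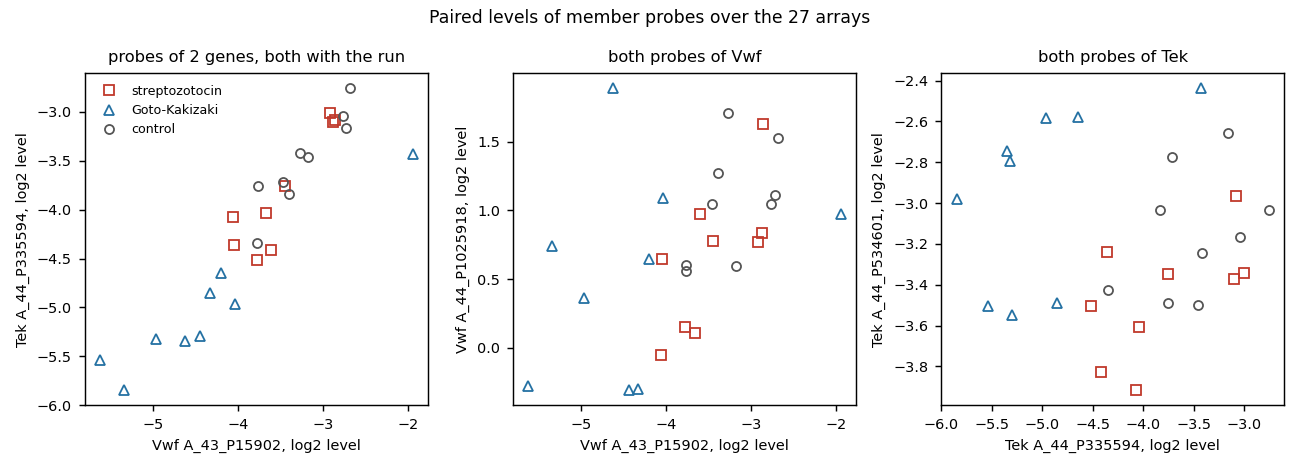
Log2 level of 1 member probe against another (both axes relative to the 75th percentile of the array), 1 point per array for 27 arrays, marked by animal group. The probes of different genes that share the run lie along a line (r 0.92), while both probes of Vwf (r 0.48) and both probes of Tek (r 0.01) scatter.

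What these 2 probes share is a stretch of letters. AAGAAGAAG, chosen after the values were seen and searched on the printed strand, is held by 66 of 41012 probes (0.161%) and by these 2 of the 12 member probes. In Vwf A_43_P15902 it is part of a run from base 43 to base 54, and in Tek A_44_P335594 it spans bases 7 to 15. The opposite strand, CTTCTTCTT, is held by 32 probes (0.078%) and by no member probe. The 10 probes nearest by r to each of the 2 included 7 that hold the run, among probes well above background on all arrays of which about 0.175% hold it. For each of the other 10 member probes the nearest 10 included none. Fam184b (r 0.94 with Vwf A_43_P15902), Mrpl40, a mitochondrial ribosomal protein (r 0.91), and Marcksl1, a membrane protein bound by calmodulin (r 0.91), were among the nearest, and their probes are shown for the run in capitals.
Fam184b A_44_P142401: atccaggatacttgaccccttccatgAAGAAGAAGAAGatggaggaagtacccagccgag
Mrpl40 A_42_P719101: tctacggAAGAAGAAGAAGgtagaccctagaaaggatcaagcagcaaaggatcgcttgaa
Marcksl1 A_42_P808973: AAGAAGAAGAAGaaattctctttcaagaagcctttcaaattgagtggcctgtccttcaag

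Of the probes with the run, 5 of 53 were lower and 3 higher in the Goto-Kakizaki than in the control hippocampus, 16 of 56 lower and 1 higher in prefrontal cortex, and 7 of 56 lower and none higher in striatum. In the prefrontal cortex this was 28.6% of them, against 4.53% of all probes that were lower there. In streptozotocin-treated rats none passed in any region under limma, while 4 of 53 in the hippocampus, 21 of 56 in prefrontal cortex and 2 of 56 in striatum had an unadjusted p under 0.05. Of all probes, 4366 of 30671, 4750 of 30911 and 5544 of 30606 had one in the same order of regions. The second probe of Vwf also lay lower in Goto-Kakizaki prefrontal cortex, at 0.36, 0.65 and 0.74, against 1.11, 1.05 and 1.04 in controls, without overlap and without a call (log2 -0.48, adjusted p 0.169), whereas the second probe of Tek did not (log2 0.08). The part of the run in these values was not tested.

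The 3 probes outside the rule are named Tpmt or Pecam on the array. The accession behind the 2 Tpmt probes is listed for Ocln, the tight junction protein occludin, in the RefSeq table, whereas the array describes it as thiopurine methyltransferase. Which of the genes they measure is therefore unknown here. The first, A_44_P1007729, stood at -0.18, 0.04 and -0.17 in the Goto-Kakizaki prefrontal cortex and at 0.38, 0.60 and 0.46 in the control prefrontal cortex (log2 -0.58, adjusted p 0.00147). In the striatum it stood at 0.31, 0.25 and 0.38 in Goto-Kakizaki rats and at 0.65, 0.74 and 0.66 in controls (log2 -0.37, adjusted p 0.0294). The second probe, A_43_P12552, passed against controls in neither model in any region.

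Of the 23 tested genes of the wider endothelial list, 8 were higher and none lower in the Goto-Kakizaki than in the control striatum, with a median log2 change of 0.43 against 0.02 over all probes, where 6.48% of all probes passed as higher. They were Emcn, a sialoglycoprotein of capillary and venous endothelium (log2 0.66, adjusted p 0.00248), Tie1, the partner receptor of Tie2 (log2 1.07, adjusted p 0.0213), the transcription factor Fli1 (log2 0.84), the TGF-beta co-receptor Eng (log2 0.74), Egfl7 (log2 0.57), the nitric oxide synthase Nos3 (log2 0.55), the junctional protein Esam (log2 0.52) and Ramp2, part of the adrenomedullin receptor (log2 0.48). In the Goto-Kakizaki hippocampus 1 was higher (Emcn, log2 0.63) and none lower, with a median of -0.01, and in the prefrontal cortex none was higher and 1 lower (Klf4, log2 -0.52), with a median of 0.14. Of all probes, 2.35% were higher in the hippocampus and 4.53% lower in the prefrontal cortex, so these counts of 1 lie near them. At an unadjusted p under 0.05 Goto-Kakizaki rats had 1 of 23 in hippocampus, 5 in prefrontal cortex and 12 in striatum, and streptozotocin-treated rats had 2, 7 and 3 in that order. Of all probes these were 4818 of 30678, 6783 of 30902 and 8480 of 30603 in Goto-Kakizaki rats. In streptozotocin-treated rats they were 4366 of 30671, 4750 of 30911 and 5544 of 30606. Differences of the list between regions were not tested. After streptozotocin none was higher in any region, while Nos3 was lower in the prefrontal cortex (log2 -0.74, adjusted p 0.0143) and Klf4 in the striatum (log2 -0.55, adjusted p 0.0449). The shares of all probes that were lower were 1.64% and 1.49% there, so these counts of 1 lie near them.

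**Figure D4:**
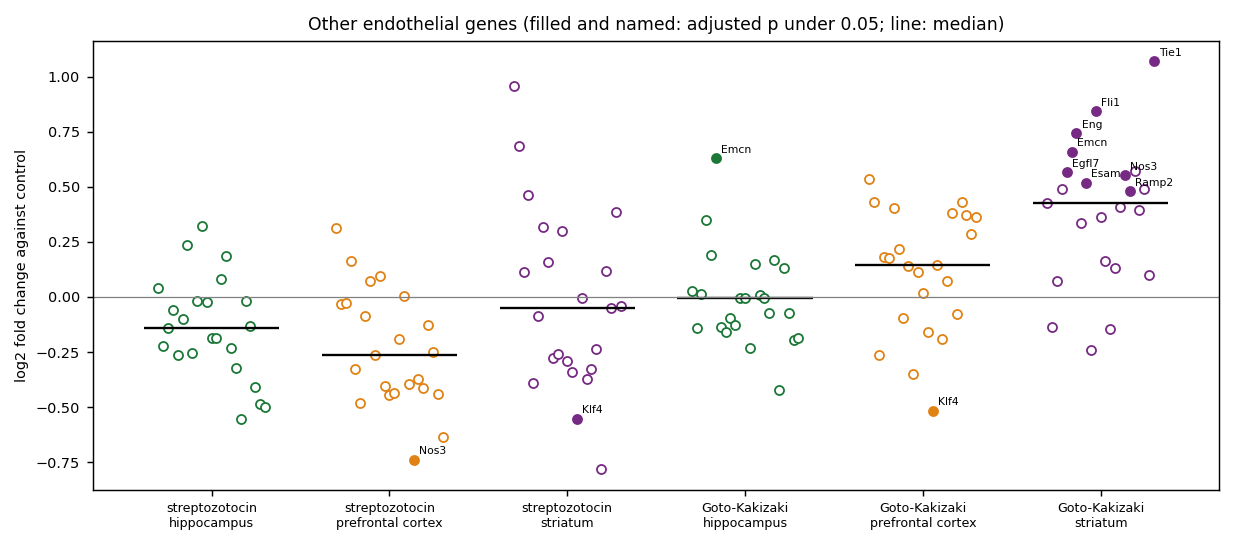
Log2 fold change against control (y axis) of the 23 tested genes of the endothelial list other than the members, for each model and region (x axis), with filled and named points at an adjusted p under 0.05 and a line at the median. The Goto-Kakizaki striatum has 8 filled points and a median of 0.43, and no other column has more than 1 filled point.

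These striatal calls rested on the slides and the settings. With the slides 5 to 7 as covariates, or on slide 4 alone, none of the 23 genes passed and the median was 0.18, and with the normexp background correction 1 passed and the median was 0.04. The count was 3 of 23 without Goto-Kakizaki replicate 2, 2 without control replicate 2 and 5 without control replicate 3. Markers of other cells and of blood moved in the same samples. Of 4 red cell markers 3 were higher in the Goto-Kakizaki striatum (Hbb, log2 1.43, and Alas2, log2 1.31, among them), and their summed level lay between 104 and 143, against 70.9 to 103 in the control striatum. Microglia markers summed to between 54.5 and 87.4 in Goto-Kakizaki rats and to between 39.4 and 45.1 in controls, with C1qa, C1qb and Cd68 higher among 8. Smooth muscle markers summed to between 19.4 and 25.9 in Goto-Kakizaki rats and 12.3 to 17.4 in controls, with Cnn1 well above background on no array. Pericyte markers overlapped, at 41.7 to 75 in Goto-Kakizaki rats and 43.9 to 59.5 in controls, with 1 of 10 higher, against 6.48% of all probes. The part of these cells in the endothelial counts was not tested.

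Of the transporters and receptors of the barrier, 7 of 24 were higher and none lower in the Goto-Kakizaki striatum (median log2 0.27), where 6.48% of all probes passed as higher and 7.35% as lower. Insr, the insulin receptor (log2 0.67), Abcg2, a drug export pump (log2 0.60), Slco2b1, an organic anion carrier (log2 0.74), Slc38a5, a glutamine carrier (log2 0.69), and Slc7a5, a carrier of large neutral amino acids (log2 0.60), were among them. None of the 24 passed with the slides 5 to 7 as covariates, and 4 passed without Goto-Kakizaki replicate 2 or without control replicate 2. In the Goto-Kakizaki hippocampus 1 was higher (Insr, log2 0.57), and in the prefrontal cortex 2 were higher (Abcg2, log2 0.59, and Slc16a1, a lactate carrier, log2 0.40), with none lower in either. These 1 and 2 of 24 stand beside 2.35% and 4.26% of all probes that were higher there.

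Slc38a5 was lower in streptozotocin-treated rats in every region, at log2 -0.91 in the hippocampus (adjusted p 0.0198), -1.02 in prefrontal cortex (adjusted p 0.00939) and -0.91 in striatum (adjusted p 0.018). In the hippocampus Abcg2 was lower as well (log2 -0.59, adjusted p 0.0255) and Insr was higher (log2 0.74, adjusted p 0.00885), and in the striatum Slc16a1 was lower (log2 -0.49, adjusted p 0.0307). The other 21, 23 and 22 of the 24 genes did not pass, and the shares of all probes that were lower were 1.08%, 1.64% and 1.49%.

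In the VEGF and angiopoietin pathway, 6 of 21 tested genes were higher and none lower in the Goto-Kakizaki striatum, against 6.48% of all probes that were higher. There the ligand Vegfa was called by 1 of its 2 probes. They included Epas1, a hypoxia-inducible factor abundant in endothelium (log2 0.67, adjusted p 0.0065), Angpt1, the ligand that activates Tie2 (log2 0.69, adjusted p 0.00651), and the ligands Vegfb (log2 0.65) and Vegfc (log2 0.33). Tie1 stands in this list and in that of the endothelial genes. The count was 2 without Goto-Kakizaki replicate 2, 3 without control replicate 2 and 0 with the slides 5 to 7 as covariates. In the Goto-Kakizaki hippocampus 2 of 23 were lower and none higher, and in the prefrontal cortex 3 of 22 were lower and none higher, against 2.77% and 4.53% of all probes that were lower. Arnt, the partner of the hypoxia-inducible factors, was lower in both (log2 -1.03 and -1.26). The strain effect on Epas1 in the hippocampus, log2 -0.50, differed from that in the striatum by the interaction test (adjusted p 0.0214). After streptozotocin Angpt1 was higher in the hippocampus (log2 0.72, adjusted p 0.0184) and the prefrontal cortex (log2 0.69, adjusted p 0.022), in counts of 2 higher and none lower of 23, 1 higher and 1 lower of 22, and 1 higher and none lower of 21 over hippocampus, prefrontal cortex and striatum. The shares of all probes that were higher there were 1.12%, 1.04% and 1.76%, so that a count of 1 is near the background.

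Edn1, the vasoconstrictor peptide of endothelium, was the steadiest of the endothelial activation genes. It was lower in Goto-Kakizaki rats in the hippocampus (log2 -0.62, adjusted p 0.00531), the prefrontal cortex (log2 -0.70, adjusted p 0.00144) and the striatum (log2 -0.83, adjusted p 0.000223). In streptozotocin-treated rats it was higher in the prefrontal cortex (log2 0.58, adjusted p 0.019) and the striatum (log2 0.72, adjusted p 0.00389), and in the hippocampus the difference was 0.41 (adjusted p 0.115). Of the 8 tested genes of the list, 7 in the striatum, the only other call against controls was for Plat, the tissue plasminogen activator (log2 0.54 in the Goto-Kakizaki striatum).

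Few junction genes other than the members passed. In Goto-Kakizaki rats 3 of 15 were lower in the hippocampus (Ctnnb1, beta-catenin, log2 -0.50, and Cldn3, log2 -1.05, among them), 1 of 15 in the prefrontal cortex (Cldn3, log2 -0.94) and 2 of 14 in the striatum (Ctnna1, log2 -0.53, and Ctnnb1, log2 -0.41), and none was higher. The shares of all probes that were lower were 2.77%, 4.53% and 7.35%, and the counts in prefrontal cortex and striatum lie near them. After streptozotocin none passed in any region under limma or the methods' t-test with adjustment, while 6, 2 and 7 of them had an unadjusted p under 0.05 in hippocampus, prefrontal cortex and striatum. Of all probes, 4366 of 30671, 4750 of 30911 and 5544 of 30606 had one under limma. The Wnt pathway induces the barrier, and of its 10 tested genes none was higher and 2 lower in the Goto-Kakizaki hippocampus, 1 higher and none lower in prefrontal cortex, and 1 higher and 2 lower in striatum. Of all probes, 4.26% were higher in prefrontal cortex and 6.48% in striatum. Axin2, a feedback target of the pathway, was higher in Goto-Kakizaki rats in the prefrontal cortex (log2 0.88, adjusted p 0.00261) and striatum (log2 0.96, adjusted p 0.000934). Lrp5, a co-receptor for Wnt ligands, was lower in the Goto-Kakizaki hippocampus (log2 -0.78, adjusted p 0.0319), and Ctnnb1, which also stands in the junction list, was lower there and in striatum. After streptozotocin none of the 10 was higher, and 2, 1 and 0 were lower in hippocampus, prefrontal cortex and striatum under limma. In striatum 3 had an unadjusted p under 0.05, against 5544 of 30606 of all probes. The shares of all probes that were lower were 1.08%, 1.64% and 1.49% in the same order of regions. Lef1, a transcription factor of the pathway, was lower after streptozotocin in the hippocampus (log2 -1.05, adjusted p 0.00306) and prefrontal cortex (log2 -1.13, adjusted p 0.002), and Reck, a membrane protein that takes part in Wnt7 signalling, in the hippocampus (log2 -0.59, adjusted p 0.0113).

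The mean of 6 endothelial members (Abcb1a, Cldn5, Flt1, Kdr, Tek and Vwf, 1 probe each) was correlated with 14039 named probes that were well above background on all 27 arrays. Nearest over the arrays was Procr, the endothelial receptor for protein C (r 0.94, rho 0.91), followed by Asic1 (0.93), Plekha6 (0.92), Ngef (0.92) and Gsg1l (0.92). Over the deviations from the group means it was Grin2d, a subunit of the NMDA receptor (r 0.93, rho 0.94), followed by Ifitm3, an interferon-induced membrane protein (0.77), Isg20 (0.72), Egflam (0.72) and Slfn2 (0.70). The lists share no gene, and the values describe likeness over these arrays alone.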

How the data were processed

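Total RNA of pools of 3 animals was labelled with Cy3 and hybridised to 27 single-colour Agilent rat arrays of 60-base probes. The authors scanned them with Feature Extraction 9.1. The intensity used here is the deposited processed signal, in which, per the file headers, a modelled background and a trend over the array had been removed and dim spots given a substitute value. The deposited value table held the same signal (largest relative difference 0 over 42429 features), with column medians from 85.7 to 187.

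Control spots (1417 per array) and 2635 values marked as outliers were left out. Each probe had 1 spot. The log2 signal minus the 75th percentile of each array entered a model of 9 group means in limma (version 3.58.1, R 4.3.3) over 27 arrays, with 18 residual and 2.56 prior degrees of freedom. Tests covered probes that were well above background on 2 or more of the 3 arrays in any group of the region, or of the contrast between regions. P-values were adjusted over all probes of a comparison by Benjamini-Hochberg, and a call is an adjusted p under 0.05. The 3 arrays per group limit the precision, and p-values measure the spread between pools. All member probes are shown. From each other list the rule named up to 2 genes with the smallest p per comparison with controls, and the 5 genes most like the endothelial mean, while further genes, those between regions included, were named after their values were seen.

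Current gene names came from the GRCr8 RefSeq table, by reference accession for 10735 probes, through the symbol for 5577 and an older symbol for 3730. None was found for 20970. The members and lists were chosen with earlier results of these data known. Slide was taken from the scanner annotation. Among the comparisons made, every equal replicate number shared a slide in the streptozotocin and control prefrontal cortex only (r of 0.494, 0.475 and 0.717). Replicates 2 and 3 of the control striatum and control prefrontal cortex also shared slides (r of 0.551 and 0.600). Alternatives were other scalings, background correction, filters, fits, blocks and slides, and leaving out each array. The methods' t-test is the unequal-variance test that the study's methods name. Steps across all probes were tested on simulated data. Figures used Python 3.11.15 with matplotlib 3.10.9.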

Additional observations from a re-analysis of the deposited data

Results flagged for a closer look

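After streptozotocin, 3 probes had every array on one side of the control mean in 1 region and on the other side in another, and the difference between regions was not tested. For Kdr the change was 0.31 in the hippocampus and -0.57 in the striatum. For Tek A_44_P335594 it was 0.27 in striatum, -0.35 in hippocampus and -0.87 in prefrontal cortex. For Vwf A_43_P15902 it was 0.23 in striatum, -0.26 in hippocampus and -0.71 in prefrontal cortex. None of these changes passed the test in its own region, and the Tek and Vwf probes are those that hold the AAGAAGAAG run.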

How the results depend on the processing

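Of 31 called member values, 437 other settings kept direction and call in 326, kept direction without a call in 109 and turned it in 2, both with normexp, for Tek A_44_P534601 in Goto-Kakizaki against control striatum (-0.13) and Flt1 A_43_P12015 in Goto-Kakizaki against streptozotocin prefrontal cortex (-0.0060). Leaving out single arrays kept 143 of 186 calls and turned none. Of 149 uncalled values, 81 changed sign under at least 1 setting. The cause of these changes was not tested.

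For Goto-Kakizaki against control, the hippocampal count of 3 was 1 with the methods' t-test, 1 with a 2-fold limit and 0 within slide 2, and 1 to 3 without single arrays. In prefrontal cortex the count of 3 was 0 with normexp and the t-test and 1 with slides 5 to 7 as covariates, and 1 to 2 without single arrays. In striatum the count of 4 was 0 with normexp, the t-test and the 2 groups fitted alone, 1 with the region alone, the 2-fold limit, the covariates or within slide 4, and 2 without the filter, and 2 to 5 without single arrays.

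For streptozotocin against control, the count of 1 was 0 with the t-test in all 3 regions. It was 2 in the hippocampus with the region alone, and 2 in prefrontal cortex with the stricter filter, outliers kept, slide as a block or the covariates. Without single arrays it was 1 to 1 in the hippocampus, 1 to 2 in prefrontal cortex and 1 to 2 in striatum.

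For Goto-Kakizaki against streptozotocin, the hippocampal count of 1 was 4 with the region alone, 3 with the groups alone and 0 with the t-test or the 2-fold limit, and 1 to 2 without single arrays. In prefrontal cortex the count of 4 was 1 with normexp, the 2-fold limit or the covariates, 2 with the region or groups alone and 0 with the t-test, and 1 to 3 without single arrays. In striatum the count of 6 was 1 with normexp or the region alone, 2 with the groups alone or the 2-fold limit and 0 with the t-test, and 2 to 7 without single arrays.

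In controls, striatum against hippocampus gave 4, but 1 with the t-test or the 2-fold limit, and 4 to 5 without single arrays. Prefrontal cortex against hippocampus gave 3, but 6 with the groups alone, 0 with the 2-fold limit and 1 with the covariates, and 2 to 3 without single arrays. Striatum against prefrontal cortex gave 0, but 1 with the covariates or within slide 6, and 0 to 1 without single arrays. Differences of the strain effect gave 0, but 2 with the covariates for prefrontal cortex against striatum, and 0 to 1 without single arrays there and for hippocampus against striatum, 0 to 0 for hippocampus against prefrontal cortex.

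With the replicate number as a block, the paired streptozotocin and control prefrontal cortex kept 1 call. The block moved 2 other counts, to 5 from 4 for Goto-Kakizaki against streptozotocin prefrontal cortex and to 4 from 3 for control prefrontal cortex against hippocampus, but those arrays share only a number. Over all probes, calls against controls for Goto-Kakizaki hippocampus, prefrontal cortex and striatum numbered 1569, 2718 and 4231, against 386, 626 and 870 with normexp, 6175, 928 and 260 with the groups alone and 694, 0 and 0 with the t-test. For streptozotocin they numbered 675, 826 and 996, against 90, 64 and 88 with normexp, 401, 98 and 27 with the groups alone and 0 in all 3 regions with the t-test. With the covariates the striatal counts were 852 for Goto-Kakizaki and 1692 for streptozotocin rats.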
